A study of Mus musculus with 6 samples.

Results

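The 46 genes described here encode proteins by which hepatocytes are known: plasma proteins that they secrete, apolipoproteins, and enzymes of the urea cycle, of amino acid breakdown and of glucose and glycogen metabolism. They were taken as a list of symbols and matched to the arrays through the transcript accession of each probe. All 46 had at least 1 named probe, 54 probes in all, among 20659 genes and 27234 probes that could be named. RNA came from mouse liver cells sorted by the surface protein CD63, a tetraspanin, and then kept in culture. The study speaks of 6 cell lines. In the DDC injury group (3 arrays) the cells came from adult livers injured with DDC, a porphyrinogenic compound that causes cholestatic injury, and in the no-injury group (3 arrays) from adult livers without injury. Both groups had been grown in DMEM/F12 with serum, HGF, EGF, insulin-transferrin-selenium, dexamethasone and nicotinamide, and every value below is of cultured cells, not of cells fresh from the sort. The labels add VEGF and bFGF to some cultures that they do not tie to a sample, and they give no strain, age or sex.

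Hepatocytes secrete most of the protein of blood plasma. Albumin and transthyretin carry hormones and metabolites, apolipoproteins build the lipoprotein particles that move fat between tissues, and acute-phase proteins rise in the blood when interleukin signals reach the liver. The same cells turn ammonia into urea and make glucose during fasting. Many of these genes have promoters bound by the liver-enriched factors HNF4 and C/EBP, and the fetal gene for alpha-fetoprotein is silenced after birth and known to return in regenerating and malignant liver.

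Levels are log2 processed signals after the log2 of the 75th percentile of the same array was subtracted, so 0 is the signal at that percentile, and a level is compared only with the same probe on another array. A probe counts as measured where the scanner software called it well above background, and the lowest such level lay between -7.98 and -7.14 on the 6 arrays. Replicates 1 and 3 of the no-injury group could not be told from each other beyond the noise between copies of a spot (p = 0.352, chi-square test over 124 probes printed 10 times) and were averaged, so the comparison is of 3 DDC injury samples with 2 no-injury samples. No-injury replicate 2 differed from replicates 1 and 3 by that test (chi-square 208.1 and 343.1). The DDC injury arrays differed far more from each other (1845 to 21710), so the 2 no-injury samples were much closer to each other. The labels do not say that samples of a group came from separate animals or cultures, and p-values measure only the spread between these samples. The scan of DDC injury replicate 1 took place on a separate day from that of the other 5 arrays. There were 3 scans, none with arrays of both groups, so scan and group cannot be told apart. Between 65% and 74.8% of spots were well above background and none was saturated.

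Of the 46 genes, 34 were bright enough to be tested, and 12 were not. By limma with Benjamini-Hochberg adjustment over 15619 genes, 10 of them fell after DDC injury, 2 rose and 22 did not pass at an adjusted p of 0.05. Across all genes tested, 15.8% fell and 17.7% rose by the same rule. Over all 46 genes, dim ones included, the median difference was -0.47 on the log2 scale, against 0.01 over the 20552 genes of the fit without a filter. The genes that fell are albumin, transthyretin, transferrin, Ahsg, Itih2, Ambp, Hpx, Crp, Itih4 and Apoa1, and those that rose are Afp and Apob. Of these, Ahsg and Apoa1 were well above background on no DDC injury array and met the filter through the no-injury arrays alone. No urea, amino acid, glucose or glycogen enzyme of the list passed. In bulk RNA, fewer cells of a type and less RNA per cell cannot be told apart.

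**Figure D1:**
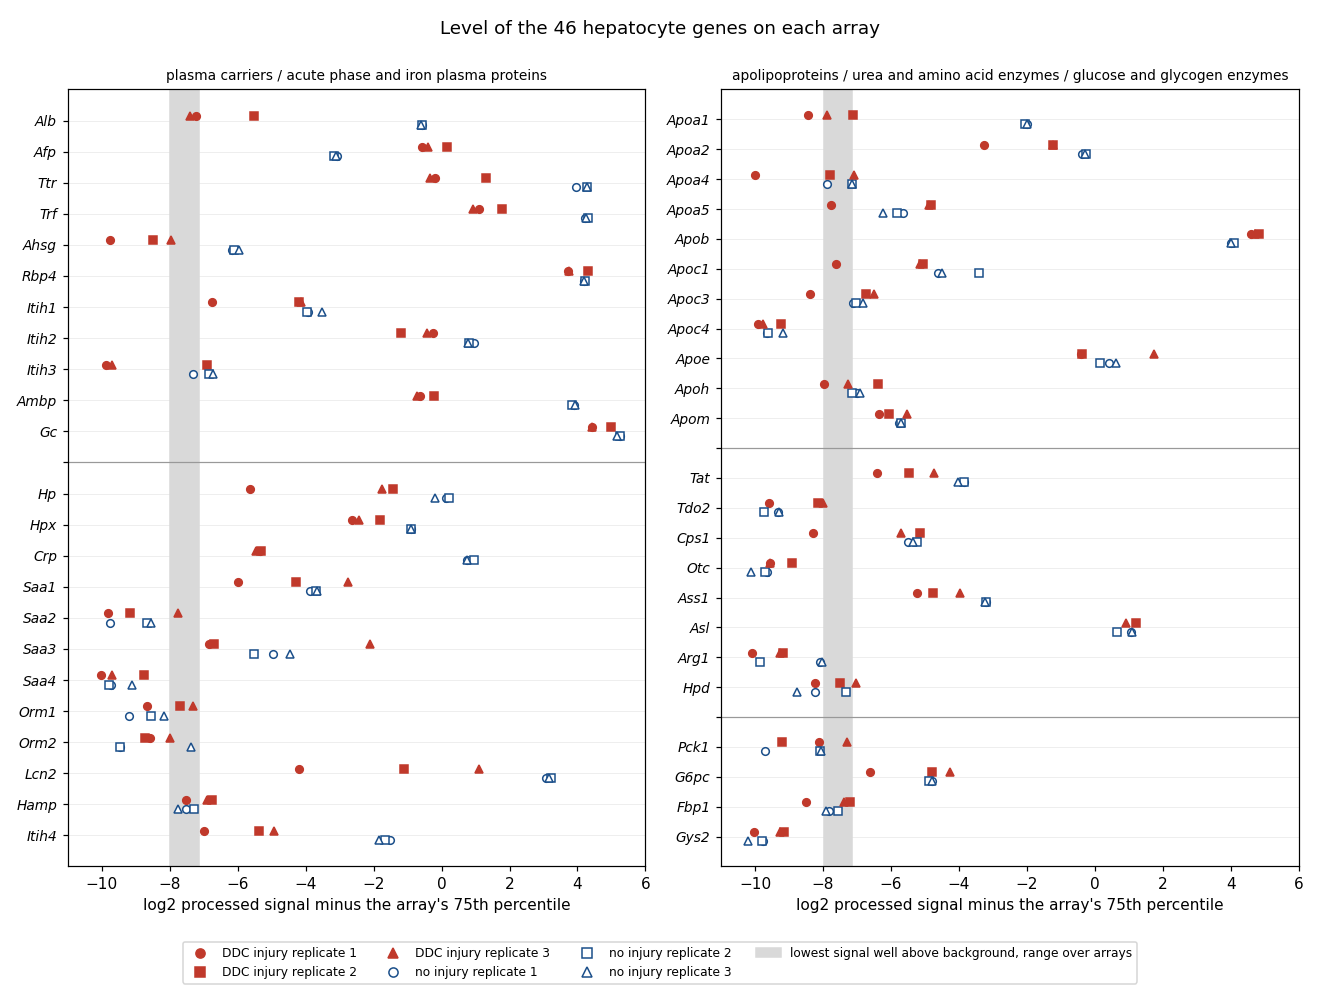
Level of each of the 46 genes on each array (horizontal axis, log2 units relative to the 75th percentile), with DDC injury replicates as filled red marks above no-injury replicates as open blue marks. The grey band spans the lowest level called well above background on the 6 arrays. Alb, Ttr, Trf, Ambp, Crp, Apoa1 and Itih4 stand left of the no-injury marks on all 3 DDC injury arrays, Afp stands right of them, and Apoc4, Saa4, Otc and Gys2 lie left of the band in both groups.

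The carrier proteins of plasma moved most often: of 11 genes, 10 were tested, 6 fell, 1 rose and 3 did not pass. Over all genes tested, 15.8% fell and 17.7% rose. Alb encodes albumin, the main carrier of plasma. Its level was -7.23, -5.52 and -7.41 in DDC injury replicates 1, 2 and 3, against -0.57, -0.58 and -0.61 in no-injury replicates 1, 2 and 3. All DDC injury arrays lay far below all no-injury arrays, and replicate 3 was not well above background. Alb fell by 6.14 ± 0.65 log2 units (SE), which is 70.3-fold lower (adjusted p = 0.00575). The size depends on the background correction, with -4.61 in the authors' values and -3.89 with the normexp correction. Afp encodes alpha-fetoprotein, the albumin of fetal plasma, and its gene is the direct neighbour of Alb on chromosome 5. Its level was -0.59, 0.15 and -0.40 in the DDC injury arrays, against -3.09, -3.16 and -3.12 in the no-injury arrays. The groups did not overlap, and Afp rose by 2.86 ± 0.26 (SE, adjusted p = 0.00403), so that these neighbours moved in opposite directions. Of the 34 tested members, 18 had all DDC injury arrays below all no-injury arrays and 2 had them above, against 31.6% and 31.6% of all genes tested.

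The promoters of Alb and Afp are shown because these genes lie side by side and moved apart. Each is the stretch of 250 bases before the transcript start from RefSeq (GRCm38.p6), written 5′ to 3′ on the gene's strand. Capitals mark matches on either strand to a C/EBP core (TTGCNNAA), an HNF4 site (CAAAGTCCA) or a TATA box (TATAAA). The Alb promoter is chr5:90460620-90460869, plus strand, and that of Afp is chr5:90490464-90490713, plus strand.
Alb: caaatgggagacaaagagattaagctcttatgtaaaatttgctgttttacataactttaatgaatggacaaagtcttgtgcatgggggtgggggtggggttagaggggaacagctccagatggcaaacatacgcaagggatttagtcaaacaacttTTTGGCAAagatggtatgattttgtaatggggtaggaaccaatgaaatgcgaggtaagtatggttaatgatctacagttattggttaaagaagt
Afp: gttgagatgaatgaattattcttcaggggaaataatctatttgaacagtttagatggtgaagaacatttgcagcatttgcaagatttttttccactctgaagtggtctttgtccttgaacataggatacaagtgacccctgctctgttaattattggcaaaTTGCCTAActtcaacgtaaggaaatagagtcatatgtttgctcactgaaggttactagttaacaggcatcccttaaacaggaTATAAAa
Both hold a C/EBP core, which begins 94 bases before the annotated start in Alb and 89 bases before it in Afp. Afp also has a TATAAA 7 bases before the start. No match overlapped another in these sequences.

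Ttr encodes transthyretin, the carrier of thyroxine and of the retinol-binding protein. It lay at -0.20, 1.32 and -0.34 in the DDC injury arrays, against 3.96, 4.27 and 4.29 in the no-injury arrays. It fell by 3.94 ± 0.58 (SE, 15.3-fold lower, adjusted p = 0.0118), with replicate 2 the highest of the DDC injury arrays, as for Alb. Its partner Rbp4, the plasma carrier of retinol, stood at 3.72, 4.32 and 3.74 in the DDC injury arrays, against 4.19, 4.22 and 4.20 in the no-injury arrays. These groups overlapped, and the difference of -0.28 ± 0.23 (SE) did not pass (adjusted p = 0.403), while without DDC injury replicate 2 it was -0.48 (adjusted p = 0.0155, over all alternatives 0.0155 to 0.684). Trf, which encodes the iron carrier transferrin, lay at 1.1, 1.78 and 0.93 in the DDC injury arrays, against 4.23, 4.30 and 4.25 in the no-injury arrays. It fell by 3.0 ± 0.29 (SE, 8.02-fold lower, adjusted p = 0.00481), and its second probe differed by -3.22. Gc, the carrier of vitamin D, stood at 4.42, 4.99 and 4.42 in the DDC injury arrays, against 5.26, 5.26 and 5.16 in the no-injury arrays. The groups did not overlap, but the difference of -0.63 ± 0.22 (SE) did not pass (adjusted p = 0.0998). A second probe of Gc differed by -1.47, and the gene passed in 7 of 18 alternatives of processing or of arrays used (the arrays of the shared scan day and the fit without DDC injury replicate 1 are the same arrays), among them the authors' values (-1.02, adjusted p = 0.0105) and the fit without DDC injury replicate 2 (-0.82, adjusted p = 0.00679), with adjusted p from 0.00679 to 0.357 over all. Ahsg encodes fetuin-A, an inhibitor of mineral deposition. Its probe was well above background on no DDC injury array and on all 3 no-injury arrays, and the gene was at least 2.65-fold lower, the dim side being set to the lowest signal well above background or to the probe's own signal where that was higher (means -8.74 and -6.08, adjusted p = 0.0308). That bound too is of this scaling, and the authors' values differed by -0.53. Ahsg met the filter through the no-injury arrays alone, so its adjusted p rests on DDC injury values that were not well above background. The call ended with the normexp correction (-0.08, adjusted p = 0.863) and without DDC injury replicate 2 (-2.78, adjusted p = 0.0636), with adjusted p from 0.00697 to 0.863 over its alternatives.

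Ambp and the Itih genes encode parts of one family of plasma complexes. Ambp gives rise to alpha-1-microglobulin and to bikunin, the protease inhibitor to which the heavy chains encoded by Itih1, Itih2 and Itih3 are linked, while Itih4 encodes a related acute-phase protein. Ambp lay at -0.65, -0.21 and -0.73 in the DDC injury arrays, against 3.89, 3.83 and 3.92 in the no-injury arrays. It fell by 4.40 ± 0.19 (SE, 21.1-fold lower, adjusted p = 0.00102), with little spread in either group. Itih2 lay at -0.25, -1.19 and -0.44 in the DDC injury arrays, against 0.96, 0.81 and 0.78 in the no-injury arrays. It fell by 1.47 ± 0.32 (SE, 2.76-fold lower, adjusted p = 0.0317), and without DDC injury replicate 3 it no longer passed (-1.56, adjusted p = 0.0761, over all alternatives 0.00717 to 0.182). Itih4 lay at -7.00, -5.36 and -4.92 in the DDC injury arrays, against -1.53, -1.68 and -1.83 in the no-injury arrays. It fell by 4.08 ± 0.69 (SE, 16.9-fold lower, adjusted p = 0.0166), and its second probe differed by -5.16. The difference was -3.03 in the authors' values, -2.50 with the normexp correction and -3.46 without DDC injury replicate 1. Itih1 stood at -6.77, -4.21 and -4.13 in the DDC injury arrays, against -3.94, -3.96 and -3.51 in the no-injury arrays, so replicate 1 alone lay far below and the difference of -1.19 ± 0.94 (SE) did not pass (adjusted p = 0.39). Itih3 was well above background on no DDC injury array and on 2 no-injury arrays and was not tested. Its level was -9.89, -6.91 and -9.71 in the DDC injury arrays, against -7.33, -6.85 and -6.74 in the no-injury arrays, and these overlap.

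Among 12 acute-phase and iron-related plasma proteins, 8 were tested, 3 fell, none rose and 5 did not pass. The shares over all genes tested were 15.8% that fell and 17.7% that rose. Crp, which encodes C-reactive protein, lay at -5.35, -5.32 and -5.47 in the DDC injury arrays, against 0.74, 0.94 and 0.74 in the no-injury arrays. The 3 DDC injury arrays were nearly equal, and Crp fell by 6.22 ± 0.12 (SE, 74.6-fold lower, adjusted p = 0.000587). It was -5.06 in the authors' values and -4.58 with the normexp correction. Hpx encodes hemopexin, which binds free haem, and it lay at -2.65, -1.80 and -2.43 in the DDC injury arrays, against -0.89 on each no-injury array. It fell by 1.41 ± 0.29 (SE, 2.65-fold lower, adjusted p = 0.0272), and without DDC injury replicate 3 it no longer passed (-1.34, adjusted p = 0.0842, over all alternatives 0.0055 to 0.17). Hp encodes haptoglobin, which binds free haemoglobin, and it stood at -5.64, -1.44 and -1.76 in the DDC injury arrays, against 0.13, 0.22 and -0.19 in the no-injury arrays. All DDC injury arrays were below, replicate 1 by far the most, and the difference of -3.04 ± 1.45 (SE) did not pass (adjusted p = 0.183). Without DDC injury replicate 1, Hp differed by -1.69 and passed (adjusted p = 0.00891, over all alternatives 0.00891 to 0.457).

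Lcn2 encodes lipocalin-2, which binds bacterial siderophores, and it spread over a wider range of levels in the DDC injury arrays than any other member. It stood at -4.21, -1.10 and 1.09 in DDC injury replicates 1, 2 and 3, against 3.07, 3.23 and 3.16 in the no-injury arrays. All were below the no-injury arrays, and the difference of -4.58 ± 1.65 (SE) did not pass (adjusted p = 0.103). It passed in 3 of 18 alternatives, the authors' values among them (-4.54, adjusted p = 0.0474), with adjusted p from 0.0381 to 0.331 over all. Saa3 encodes a serum amyloid A that macrophages and other cells outside the liver parenchyma also make. It stood at -6.86, -6.70 and -2.10 in the DDC injury arrays, against -4.95, -5.52 and -4.47 in the no-injury arrays, so that replicates 1 and 2 lay below and replicate 3 above. Saa1, a serum amyloid A of hepatocytes, stood at -5.98, -4.30 and -2.76 in the DDC injury arrays, against -3.87, -3.70 and -3.67 in the no-injury arrays, again with replicate 3 the highest. Neither passed, with differences of -0.10 ± 1.70 for Saa3 and -0.61 ± 1.00 for Saa1 (SE, adjusted p = 0.969 and 0.677). Hamp, which encodes the iron hormone hepcidin, differed by 0.40 ± 0.28 (SE, adjusted p = 0.346), with levels between -7.75 and -6.76 on the 6 arrays. Saa2 and Saa4 were well above background on no array, and Orm1 and Orm2, the acid glycoproteins, on 1 array each. Saa1 and Saa2 are near-identical genes, as are Orm1 and Orm2, and whether their probes tell the copies apart was not tested.

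Of 11 apolipoprotein genes, 10 were tested, 1 fell, 1 rose and 8 did not pass. Of all genes tested, 15.8% fell and 17.7% rose, so the apolipoproteins moved no more often than these in either direction. Apoa1 encodes the main protein of high-density lipoprotein. It lay at -8.43, -7.13 and -7.87 in the DDC injury arrays, none of them well above background, against -1.99, -2.04 and -2.0 in the no-injury arrays. Apoa1 was at least 44.4-fold lower in the DDC injury group (adjusted p = 0.00249). That bound holds only for the processed signals as scaled here, and the difference was -3.54 in the authors' values and -2.69 with the normexp correction. Apoa1 met the filter through the no-injury arrays alone, and its adjusted p rests on DDC injury values that were not well above background. Apob encodes the structural protein of low-density and very-low-density lipoprotein. It lay at 4.61, 4.84 and 4.73 in the DDC injury arrays, against 4.02, 4.09 and 4.02 in the no-injury arrays. The groups did not overlap and Apob rose by 0.67 ± 0.12 (SE, adjusted p = 0.0173), and its second, dimmer probe differed by 1.54. Without DDC injury replicate 3 the rise no longer passed (0.67, adjusted p = 0.0577, over all alternatives 0.00218 to 0.158).

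The promoters of Apoa1, which fell, and of Apob, which rose, are shown with that of Crp, the gene with the smallest adjusted p among the members, in the same form and with the same capitals. That of Apoa1 is chr9:46228380-46228629, plus strand, that of Apob is chr12:7977427-7977676, plus strand, and that of Crp is chr1:172697806-172698055, plus strand.
Apoa1: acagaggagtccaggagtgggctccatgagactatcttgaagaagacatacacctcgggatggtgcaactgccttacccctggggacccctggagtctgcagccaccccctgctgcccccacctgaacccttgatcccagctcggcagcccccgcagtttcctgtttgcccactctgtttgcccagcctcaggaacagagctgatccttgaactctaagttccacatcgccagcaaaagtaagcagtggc
Apob: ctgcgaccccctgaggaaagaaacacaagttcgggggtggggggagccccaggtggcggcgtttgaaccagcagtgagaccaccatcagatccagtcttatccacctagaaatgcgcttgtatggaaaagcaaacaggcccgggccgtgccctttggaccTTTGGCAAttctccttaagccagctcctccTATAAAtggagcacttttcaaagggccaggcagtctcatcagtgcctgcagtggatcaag
Crp: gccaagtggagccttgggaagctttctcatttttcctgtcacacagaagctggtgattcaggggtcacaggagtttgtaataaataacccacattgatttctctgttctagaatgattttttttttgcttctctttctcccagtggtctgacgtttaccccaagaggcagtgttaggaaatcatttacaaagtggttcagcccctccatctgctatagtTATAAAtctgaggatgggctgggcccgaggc
The Apoa1 stretch holds none of these letters, the Apob stretch a C/EBP core 90 bases and a TATAAA 60 bases before the start, and the Crp stretch a TATAAA 31 bases before it. Of the 46 members, 36 had a promoter in the table. A C/EBP core was found in 14 of 36 (38.9%), against 10.8% of the 27025 genes of the table, a TATAAA in 10 of 36 (27.8%), against 14.3%, and CAAAGTCCA in none, against 0.451%. Among members that fell, 4 of 8 held a C/EBP core, and among those that rose 2 of 2 did. Among tested members that did not pass 5 of 17 did, and among members not tested 3 of 9. Such a match is a run of letters and not a shown binding site.

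The remaining apolipoproteins showed no call. Apoe, made by hepatocytes and by many other cells, stood at -0.42, -0.39 and 1.74 in the DDC injury arrays, against 0.41, 0.16 and 0.63 in the no-injury arrays, and the difference was -0.03 ± 0.78 (SE, adjusted p = 0.981). As for Saa1 and Saa3, DDC injury replicate 3 was the highest array. Apoa2, the second protein of high-density lipoprotein, stood at -3.25, -1.23 and -1.23 in the DDC injury arrays, against -0.38, -0.27 and -0.30 in the no-injury arrays. All DDC injury arrays were below, and the difference of -1.60 ± 0.73 (SE, adjusted p = 0.168) passed without DDC injury replicate 1, at -0.92 (adjusted p = 0.0097, over all alternatives 0.0097 to 0.432). Apoa5, a regulator of triglyceride clearance, stood at -7.76, -4.81 and -4.89 in the DDC injury arrays, against -5.65, -5.82 and -6.24 in the no-injury arrays. Replicate 1 lay below and replicates 2 and 3 above, and without replicate 1 the difference was 1.04 and passed (adjusted p = 0.00939, over all alternatives 0.00939 to 0.982), against 0.07 ± 1.05 with all arrays (SE, adjusted p = 0.966). Apoc1, a small inhibitor of lipase and receptor binding, stood at -7.63, -5.05 and -5.14 in the DDC injury arrays, against -4.62, -3.41 and -4.50 in the no-injury arrays, and did not pass (-1.96 ± 0.98, SE, adjusted p = 0.199). Apoa4, Apoc3, Apoh and Apom differed by -0.95, -0.20, -0.15 and -0.25 (adjusted p = 0.493 to 0.843), and Apoc4 was well above background on no array.

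The members form several runs of neighbours on the chromosomes, and within these runs the differences were not alike. On chromosome 9, Apoa1, Apoc3, Apoa4 and Apoa5 follow each other with no other protein-coding gene between them, genes with provisional Gm and Rik symbols aside. Apoa1 differed by -6.41, -5.11 and -5.85 log2 units from the no-injury mean in DDC injury replicates 1, 2 and 3, while Apoc3 differed by -1.37, 0.28 and 0.49. In the no-injury arrays, however, Apoc3 stood at only -7.11, -7.04 and -6.82, and Apoa4 at -7.88, -7.15 and -7.15. These levels are near the lowest called well above background, so a fall like that of Apoa1 could not have been seen in either gene. On chromosome 5, Gc lies 4 such genes before Alb, and Alb lies next to Afp. There Alb differed by -6.64, -4.94 and -6.83 and Gc by -0.82, -0.25 and -0.81. On chromosome 14, Itih4, Itih3 and Itih1 follow each other, with Itih4 differing by -5.32, -3.68 and -3.24 and Itih1 by -2.93, -0.37 and -0.29. On chromosome 7, the 4 Saa genes lie together and only Saa1 and Saa3 of them were bright enough to be tested.

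**Figure D2:**
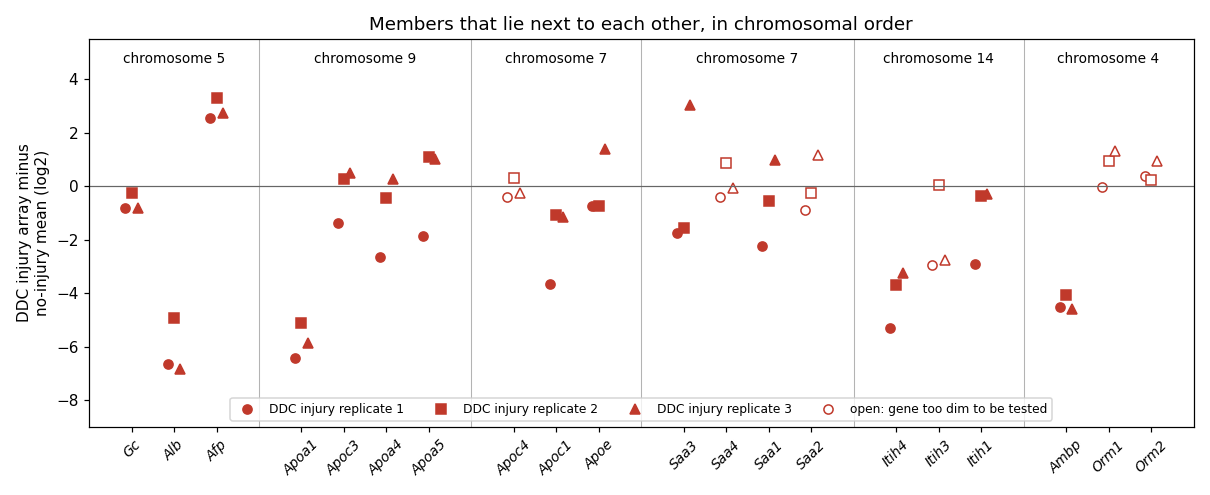
Log2 difference of each DDC injury array from the no-injury mean (vertical axis) for members that lie near each other, in chromosomal order (horizontal axis), with a mark shape for each DDC injury replicate and open marks for genes too dim to be tested. Apoa1 lies between -6.41 and -5.11 while its neighbour Apoc3 lies between -1.37 and 0.49, and Alb and Afp lie on opposite sides of 0. The no-injury level of Apoc3 was near the lowest called well above background, which left it little room to fall.

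Of the 12 enzymes, 6 were too dim to be tested. Of 8 enzymes of the urea cycle and of amino acid breakdown, 4 were tested and none passed. Otc, Arg1 and Tdo2 were well above background on no array in either group, and Hpd on 1 DDC injury array. Cps1, the entry enzyme of the urea cycle, stood at -8.29, -5.15 and -5.69 in the DDC injury arrays, against -5.51, -5.24 and -5.34 in the no-injury arrays, so replicate 2 lay above and replicate 3 below the no-injury arrays, both by little, and replicate 1, the lowest, was not well above background. The difference of -1.04 ± 1.04 (SE) did not pass (adjusted p = 0.497). Ass1, which makes argininosuccinate, stood at -5.23, -4.76 and -3.96 in the DDC injury arrays, against -3.21, -3.20 and -3.24 in the no-injury arrays. The groups did not overlap, and the difference of -1.44 ± 0.41 (SE) narrowly missed the threshold (adjusted p = 0.0591). It passed in 7 of 18 alternatives, the authors' values (-1.03, adjusted p = 0.017) and the fit without DDC injury replicate 3 (-1.79, adjusted p = 0.0255) among them, with adjusted p from 0.0124 to 0.252, and a second probe differed by -1.45. Tat, a tyrosine aminotransferase induced by glucocorticoids, stood at -6.41, -5.47 and -4.72 in the DDC injury arrays, against -3.86, -3.84 and -4.04 in the no-injury arrays. Its difference of -1.64 ± 0.53 (SE) did not pass (adjusted p = 0.0813), but did in 7 of 18 alternatives, without DDC injury replicate 1 (-1.20, adjusted p = 0.0455) and without replicate 3 (-2.05, adjusted p = 0.0488) among them, with adjusted p from 0.014 to 0.302. Asl, which splits argininosuccinate, had no usable spot on DDC injury replicate 1. It stood at 1.20 and 0.92 in DDC injury replicates 2 and 3, against 1.06, 0.66 and 1.09 in the no-injury arrays, and did not pass (0.19 ± 0.22, SE, adjusted p = 0.574).

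Of the 4 enzymes of glucose and glycogen metabolism, 2 were tested and neither passed. G6pc, the glucose-6-phosphatase of gluconeogenesis, stood at -6.61, -4.78 and -4.26 in the DDC injury arrays, against -4.78, -4.87 and -4.78 in the no-injury arrays (difference -0.39 ± 0.77, SE, adjusted p = 0.728). Once more replicate 1 was the lowest array and the other DDC injury arrays were at or above the no-injury level. Fbp1, a fructose bisphosphatase, differed by 0.02 ± 0.46 (SE, adjusted p = 0.973). Pck1, which makes phosphoenolpyruvate, was well above background on 1 DDC injury array, and Gys2, the liver glycogen synthase, on none. Of the 6 hepatocyte markers checked, Alb, Ttr, Apoa1, Cps1, Hnf4a and Serpina1a, all were well above background on the 3 no-injury arrays, and Ttr, Hnf4a and Serpina1a also on the 3 DDC injury arrays. Serpina1a is one of several near-identical copies that its probe may not tell apart.

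The DDC injury arrays differed among themselves in how far the members lay from the no-injury mean. In replicate 1, 24 of the 34 tested members were at least 2-fold below it, against 24.3% of all genes tested. In replicate 2 this held for 15, against 12.6% of all genes tested, and in replicate 3 for 13, against 10.8%. The median difference of the tested members was -2.24, -0.82 and -0.61 in replicates 1, 2 and 3, against -0.10, 0.00 and 0.07 over all genes tested. Being tested required a signal on 3 of 6 arrays, which members high in 1 group can meet through that group alone. Replicate 1 was the lowest of the 3 DDC injury arrays for 27 of the 33 tested members with a value on every array, against 37.3% of all genes tested. Replicate 2 was the highest for 19 of the 33, against 36.6%. Replicate 1 was at least 2-fold below each of the other 5 arrays for 13 of the 46 members, Hp, Itih1, Apoa2, Apoa4, Apoa5, Apoc1, Apoc3, Cps1 and G6pc among them, and for 10.2% of the 20659 genes. Of these members, Ahsg, Apoa4, Apoa5, Apoc1, Apoc3 and Cps1 were not well above background in replicate 1 (-9.99 to -7.63), so the size of their gaps is not known. The lowest level well above background was -7.82, -7.14 and -7.52 in replicates 1, 2 and 3. The other 5 arrays stood apart in this way for 0 members each.

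Markers of some other liver cell types stood apart on the same array. DDC injury replicate 1 was at least 2-fold below each of the other 5 arrays for 10.2% of the 20659 genes. This held for 5 of 8 erythroid, 6 of 11 macrophage, 5 of 12 endothelial and 5 of 12 stellate cell and fibroblast markers. It also held for 2 of 12 cholangiocyte and 2 of 11 mesothelial markers (16.7% and 18.2%), which is nearer the share of all genes. Here too some replicate 1 values, such as those of Tek (-9.9), Lyve1 (-9.94) and C1qa (-10.02), lay below the lowest level well above background (-7.82). The summed level of the erythroid list, on the linear scale where 1 is the 75th percentile, was 0.107 in DDC injury replicate 1 and 0.804 and 1.05 in replicates 2 and 3, against 0.909 to 3.29 in the no-injury arrays. For the stellate list it was 0.216 in replicate 1 and 0.699 and 1.30 in replicates 2 and 3, against 0.423 to 0.62. For the macrophage list it was 2.96 to 6.45 in the DDC injury arrays, against 7.58 to 7.95, and for the endothelial list 1.33 to 1.72, against 1.58 to 1.87. Of the cholangiocyte list, 5 of 10 tested genes fell and none rose, against 15.8% and 17.7% of all genes tested, and its sum was 54.2 to 59.2, against 72.6 to 74.6. Of the mesothelial list, 4 of 9 fell and 1 rose, against the same shares. Over its 10 markers with a value on every array, the sum was 57.4 to 70.9, against 57.4 to 58.9. Such sums follow their brightest genes and are not levels of a cell type. These were Spp1 and Krt19 for cholangiocytes, Cd14 for macrophages, Egfl7 for endothelium, mostly Hba-a1 for the erythroid list, and Krt18 and Msln for mesothelium. The mesothelial sum thus does not show that Upk1b fell by 7.73 ± 0.18 (SE). Nor does the cholangiocyte sum show that Prom1 fell by 8.69 ± 0.21 (SE). Well above background on all 6 arrays were 6 of 11 macrophage markers (Adgre1, Csf1r and Marco among them), 4 of 12 stellate markers (Col1a1, Acta2 and Dcn among them), 4 of 12 endothelial markers (Pecam1, Cdh5 and Kdr among them) and 5 of 8 erythroid markers. On no array were 1 macrophage marker (Clec4f), 2 stellate markers (Reln and Des), 1 endothelial marker (Erg) and 1 erythroid marker. The part of these cells, or of the scan day that replicate 1 has to itself, in the low member values of that array was not tested. Without DDC injury replicate 1, 13 members fell and 3 rose, against 18.3% and 18.2% of all genes tested in that fit.

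**Figure D3:**
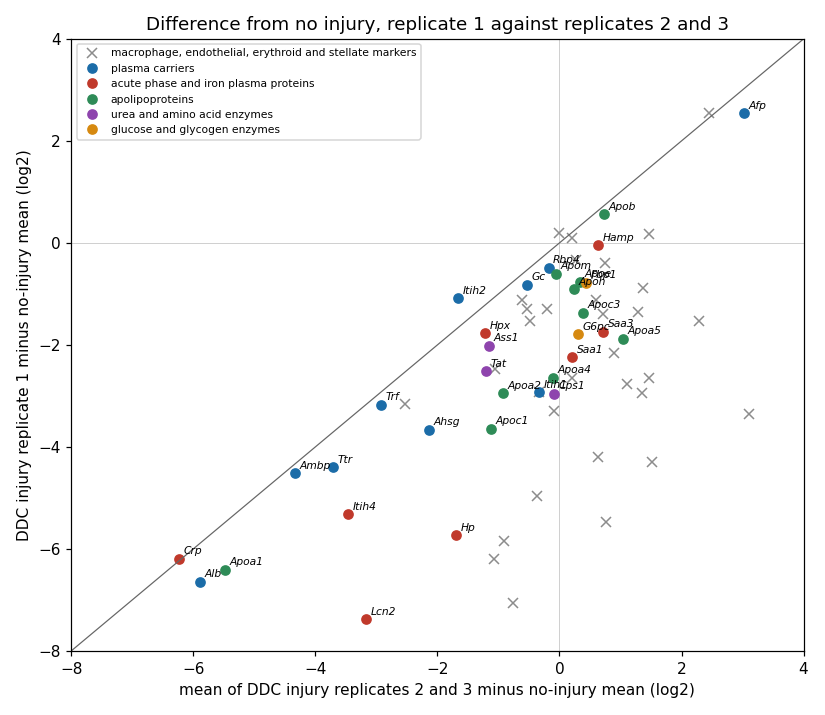
Log2 difference from the no-injury mean in DDC injury replicate 1 (vertical axis) against the mean of replicates 2 and 3 (horizontal axis) for tested members, coloured by role, and for tested markers of macrophages, endothelium, erythroid and stellate cells (grey crosses), with the line of equality. Crp, Ambp, Trf and Afp lie close to the line, while Hp, Itih1, Apoc1, Cps1 and G6pc and many crosses lie well below it.

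How firmly the members were called depends on how the no-injury arrays are counted. When all 3 no-injury arrays were merged to a single sample, 3 members fell and none rose, and these were Crp, Ambp and Apoa1. Of all genes, 1.32% fell and 2.19% rose in that fit. Without no-injury replicate 2, which also leaves 1 no-injury sample, 2 fell, Crp and Ambp, and none rose, and Apoa1 was then too dim to be tested. Under the averaged count the adjusted p was 0.0705 for Alb (-6.13), 0.0612 for Afp (2.85), 0.106 for Ttr (-3.91), 0.0656 for Trf (-2.99) and 0.126 for Itih4 (-4.08). Their sizes hardly moved under that count, while over all alternatives the difference ran between -6.74 and -3.89 for Alb and between -4.62 and -2.50 for Itih4. Their adjusted p over all alternatives ran from 0.000167 to 0.0705 for Alb, 0.00036 to 0.0615 for Afp, 0.00192 to 0.106 for Ttr, 0.000462 to 0.0658 for Trf and 0.000113 to 0.126 for Itih4. Hpx, Itih2, Ahsg and Apob did not pass under that count either (adjusted p = 0.158 to 0.182). Over all 18 alternatives the difference ran from -6.25 to -4.58 for Crp and from -4.59 to -4.30 for Ambp. For Apoa1 it ran from -6.13 to -2.69 over the 14 in which it was tested. Apoa1 was too dim to be tested when a no-injury array was left out, and none of its DDC injury values was well above background.

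**Figure D4:**
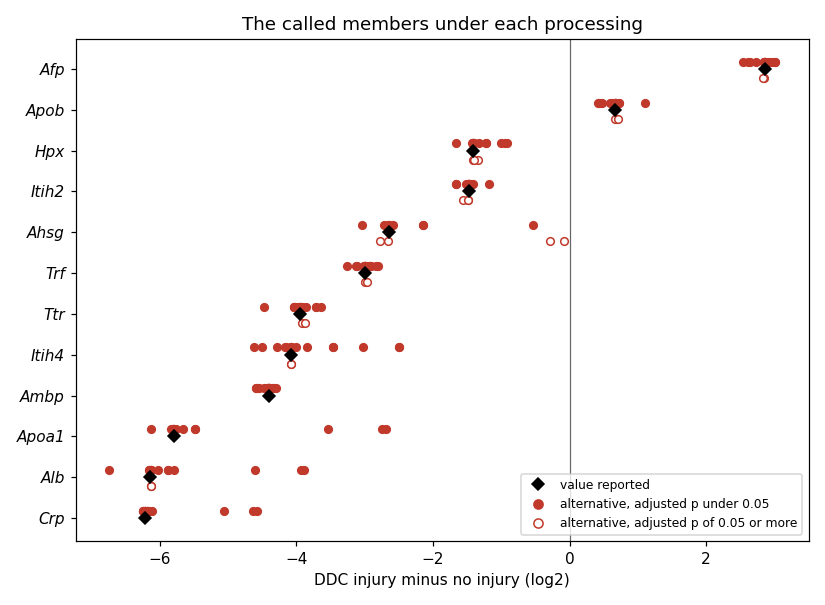
Log2 difference, DDC injury minus no injury (horizontal axis), of the 12 called members under the reported processing (black diamonds) and under each alternative (circles, filled above the line of the gene where the adjusted p was under 0.05 and open below it otherwise). Crp and Ambp have filled circles only, and Ahsg moves to -0.08 with the normexp correction.

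Regulators of hepatocyte genes were a list of 18, of which 17 were tested, 8 fell and none rose, against 15.8% and 17.7% of all genes tested. Zhx2 (in mouse liver) and Zfhx3 (in human hepatoma cells) are known to repress the Afp gene. Zhx2 lay at -4.56, -4.40 and -4.51 in the DDC injury arrays, against -3.04, -3.04 and -3.09 in the no-injury arrays, and fell by 1.44 ± 0.10 (SE, adjusted p = 0.00248). Zfhx3 fell by 1.39 ± 0.19 (SE, adjusted p = 0.0107). Ppara, a receptor that drives fatty acid use, fell by 2.09 ± 0.20 (SE, adjusted p = 0.00493), with other probes at -1.97 and -0.88. Among the genes of the factors whose motifs were searched, Hnf4a differed by -0.09 ± 0.20 and Cebpa by 0.37 ± 0.11 (SE, adjusted p = 0.747 and 0.0702) and neither passed. Hnf4a and Cebpa were well above background on all 6 arrays. Other C/EBP genes did pass: Cebpd fell by 3.49 ± 0.27 and Cebpb rose by 0.37 ± 0.09 (SE, adjusted p = 0.00301 and 0.0409).

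Other genes of lipoprotein assembly and uptake moved in both directions: of 16, 14 were tested, 3 fell and 4 rose, against 15.8% and 17.7% of all genes tested. Angptl4, an inhibitor of lipoprotein lipase, rose by 2.37 ± 0.10 (SE, adjusted p = 0.000858). Abca1, the transporter that loads lipid onto apolipoprotein A-I, lay at -3.47, -3.26 and -3.55 in the DDC injury arrays, against -0.35, -0.32 and -0.44 in the no-injury arrays. It fell by 3.07 ± 0.13 (SE, 8.4-fold lower, adjusted p = 0.00094), in the same direction as Apoa1. Sort1, a sorting receptor, fell by 1.5 ± 0.09 (SE, adjusted p = 0.0018), but its second probe differed by -0.11.

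In acute-phase signalling, all 16 genes were tested, 2 fell and 2 rose, against the same shares. Cebpd, a C/EBP factor induced by interleukin-6, lay at -1.19, -1.86 and -1.09 in the DDC injury arrays, against 2.09, 2.09 and 2.15 in the no-injury arrays, and fell by 3.49 ± 0.27 (SE, adjusted p = 0.00301). Tnfrsf1a, a receptor of tumour necrosis factor, fell by 0.68 ± 0.10 with its second probe at -0.27, while the kinase gene Jak2 rose by 0.89 ± 0.23 and Cebpb by 0.37 ± 0.09 (SE, adjusted p = 0.011, 0.0478 and 0.0409). Of 16 genes of iron handling, 15 had a probe and 13 were tested, of which 3 fell and none rose, against 15.8% and 17.7% of all genes tested. Bmp6, the signal that induces hepcidin, lay at -4.02, -5.85 and -3.92 in the DDC injury arrays, against -0.12, -0.02 and -0.04 in the no-injury arrays, and fell by 4.54 ± 0.68 (SE, adjusted p = 0.0124). The iron exporter Slc40a1 fell by 1.48 ± 0.12 and the receptor gene Bmpr1a by 0.64 ± 0.11 (SE, adjusted p = 0.0033 and 0.0192). Hamp itself did not pass, but it stood at -7.53, -7.28 and -7.75 in the no-injury arrays. That is near the lowest level well above background, so a fall of Hamp could not have been seen.

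Of 20 other genes of amino acid metabolism, 15 were tested, 2 fell and 2 rose, against the same shares. Gls2, a glutaminase, rose by 1.86 ± 0.12, Oat, the ornithine aminotransferase, rose by 0.85 ± 0.13, and Bckdha fell by 0.52 ± 0.11 (SE, adjusted p = 0.002, 0.0119 and 0.0292). All 16 other genes of glucose and glycogen metabolism were tested, and 2 fell and 2 rose, again against those shares. Gys1, the glycogen synthase of muscle and other tissues, rose by 1.13 ± 0.14 with its second probe at 0.86, and the branching enzyme gene Gbe1 rose by 0.97 ± 0.14, while Slc37a4 fell by 0.89 ± 0.19 (SE, adjusted p = 0.00832, 0.0117 and 0.0291).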

How the data were processed

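Per the file headers, Feature Extraction 11.0.1.1 read the spots. The deposited intensity columns used were the processed signal, background-subtracted within each array, and the median signals of spot and local background. The log2 values in the deposited value table were normalized between arrays by the authors, and the submitters' processing notes name limma. Spots marked as non-uniform or population outliers were dropped, and copies of a probe averaged. Accessions matched to RefSeq (GRCm38.p6) gave 27234 of 39429 probes 1 symbol and 12195 none. Each gene took its brightest named probe by mean level, and was tested if 3 or more arrays had it well above background and each group had at least 2 values. Signals were scaled to the 75th percentile. The test was limma's moderated, two-sided one (version 3.58.1 under R 4.3.3, prior degrees of freedom 1.35), checked on simulated data. The number of arrays limits the precision. The planned normexp alternative (offset 50) used median in place of mean signals. All 46 members are described, with up to 4 called genes of smallest adjusted p from each of 6 related lists, a few of which are not reported here. Hnf4a and Cebpa were named after their values were seen, for the motifs searched. The members and lists were chosen with earlier results of these data known. Motifs were searched on both strands of the 250 bases before the start.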

Additional observations from a re-analysis of the deposited data

How the results depend on the processing

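Over 18 alternatives, 2 to 14 members fell and 0 to 3 rose. Averaging the no-injury arrays into a single sample left 3 members that fell and 0 that rose, and over all genes 206 that fell and 342 that rose, against 2463 and 2761 as reported. Leaving out 1 array at a time gave 2 to 13 members that fell and 0 to 3 that rose, and 165 to 3145 genes that fell and 350 to 3692 that rose. The low ends are the fit without no-injury replicate 2, whose lone no-injury sample is assumed to vary like the other group. Without DDC injury replicate 3, 1 member rose, 1548 genes fell and 1728 rose. With the replicate block and 6 arrays counted separately, 11 members fell and 2 rose. The replicate numbers were not taken as pairs in the reported fit. Deviations of same-numbered arrays correlated at 0.117, 0.018 and 0.122, and those of differently numbered arrays at -0.145 to 0.019. With 3 arrays per group such correlations cannot decide whether the numbers pair the samples. All 34 tested members kept their call with scan as a random block (correlation 0.176) and without the filter on dim probes. Since no scan held arrays of both groups, that block cannot take a scan effect out of the group difference. The normexp correction moved the median difference of all genes to 0.07, against -0.07 as reported. No called member changed sign. Signal near background limits the dim members, and 6 of 12 enzymes were too dim to be tested.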
